A study of Homo sapiens with 5 samples.

Results

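The ZFP36 family of mRNA-destabilising proteins, ZFP36, ZFP36L1 and ZFP36L2, makes up 3 of the 20037 protein-coding genes on which peaks of this series could fall. The family was chosen by ChIP-seq peaks of these same files, because ZFP36 had a wide IRF3 peak in control cells with no counterpart in cells with active Smad3. Every value of that contrast at ZFP36 is therefore a description. Members' peaks were those inside a gene or within 50 kb of it in the 5 deposited lists.

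The cells were BT549, a widely used basal-like breast cancer line, infected with lentiviral vectors to express either an HA control or caSmad3, a constitutively active form of Smad3. Anti-IRF3 chromatin came from HA cells and from caSmad3 cells, both transfected with polyI:C, a synthetic double-stranded RNA, and neither given TGF-beta. Anti-Smad3 chromatin came from HA cells treated with TGF-beta at 1 ng/ml over 1.5 h after mock transfection, from HA cells treated with the same TGF-beta after polyI:C, and from caSmad3 cells given polyI:C but no TGF-beta. Each of the 5 groups held 1 library, so no test between conditions was possible, and for Smad3 the effects of caSmad3 and of TGF-beta cannot be told apart between HA and caSmad3 cells. The lists held 4125 and 8067 IRF3 peaks in HA and caSmad3 cells, and 353, 786 and 6041 Smad3 peaks in HA cells after mock transfection, in HA cells after polyI:C and in caSmad3 cells. Read depth is unknown. A missing peak is not a measure of binding, and the lists hold no expression values against which the cell line could be checked.

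ZFP36, also called tristetraprolin or TTP, binds AU-rich elements in the untranslated tails of short-lived transcripts through a pair of CCCH zinc fingers and recruits the CCR4-NOT deadenylase, so that the message is shortened and degraded. Its targets include the transcripts of cytokines, chemokines and immediate early genes, and the ZFP36 gene is itself an immediate early gene that limits inflammatory responses. ZFP36L1 and ZFP36L2 share the zinc fingers and bind similar elements, and are best known for roles in development and in lymphocytes. IRF3 carries the response to viral RNA to interferon genes, and Smad3 carries the TGF-beta signal.

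The bases before the starts of ZFP36 and ZFP36L1 are shown because the IRF3 peak that both kinds of cells have at each gene lies just beyond a start, and a Smad3 peak of ZFP36L1 lies just before one. They come from RefSeq (GRCh38.p14), where 2 of the 3 members matched, and ZFP36L2 is named only. Each run holds 250 bases in the direction of transcription and ends at the base before the start. ZFP36 is on the plus strand of chromosome 19 (chr19:39406597-39406846 shown), with a TATAA match in capitals from -30 to -26, counted from the start at 0. ZFP36L1 is on the minus strand of chromosome 14 and has an outer start at 68796243 (chr14:68796244-68796493 shown), with capitals on a match to the core of the interferon response element. Its inner start is at 68793416 (chr14:68793417-68793666 shown), and there capitals mark the 120 bases under the Smad3 peak listed after polyI:C and TGF-beta in HA cells.
ZFP36 start: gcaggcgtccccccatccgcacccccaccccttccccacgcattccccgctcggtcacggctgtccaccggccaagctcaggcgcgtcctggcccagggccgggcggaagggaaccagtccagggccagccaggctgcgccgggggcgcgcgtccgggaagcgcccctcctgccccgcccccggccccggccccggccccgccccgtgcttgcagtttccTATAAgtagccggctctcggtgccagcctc
ZFP36L1 outer start: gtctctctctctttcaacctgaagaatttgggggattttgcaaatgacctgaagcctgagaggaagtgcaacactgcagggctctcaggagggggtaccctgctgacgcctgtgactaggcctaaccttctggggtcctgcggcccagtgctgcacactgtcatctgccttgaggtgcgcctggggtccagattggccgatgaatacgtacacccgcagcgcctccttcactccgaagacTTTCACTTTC
ZFP36L1 inner start: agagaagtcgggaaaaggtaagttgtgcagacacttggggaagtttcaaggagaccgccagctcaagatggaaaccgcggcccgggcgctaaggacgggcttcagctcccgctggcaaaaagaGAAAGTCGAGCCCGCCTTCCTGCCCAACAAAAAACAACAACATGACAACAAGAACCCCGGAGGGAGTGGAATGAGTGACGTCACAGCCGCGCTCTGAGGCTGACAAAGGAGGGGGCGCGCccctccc

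Motifs were searched on both strands of 300-base windows, from 250 bases before to 50 after a start, in 22199 windows of protein-coding genes. The core of the interferon-stimulated response element, GAAA followed by 2 free bases and GAAA, was found in 3.17% of windows. In the 3 windows of the family it matched the outer start of ZFP36L1 alone, on the minus strand of the window in its last 10 bases before the start. The Smad-binding letters CAGAC were found in 44.8% of windows and in the family at the inner start of ZFP36L1 alone, at -223 to -219 and outside the Smad3 peak. The letters TGACGTCA, the cyclic AMP response element, were found in 2.26% of windows and lay inside that Smad3 peak, at -52 to -45 from the inner start. A GC-rich Smad motif, GGCGCC (24.3% of windows), matched 29 to 34 bases beyond the inner start. TATAA (16.5% of windows) matched at ZFP36 alone among the 3. The palindrome GTCTAGAC (0.216%), the AP-1 letters TGANTCA (6.15%) and an NF-kB pattern of GGGA, 2 free bases and TTCC (1.55%) had no match in the 3 windows. No 2 of these patterns shared a match. Matches describe letters in a window and are no binding sites.

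At ZFP36 the IRF3 peaks ran along the gene in HA cells and stood at its start alone in caSmad3 cells. The gene spans 2561 bases (chromosome 19, 39406847 to 39409407, hg38). In HA cells 3 IRF3 peaks lay inside it, of 437 bases (39406877 to 39407313), 309 bases (39408027 to 39408335) and 542 bases (39408712 to 39409253). The first began 30 bases beyond the start, the second 1180 and the third 1865, and the third ended 154 bases short of the upper end of the gene. In caSmad3 cells 1 IRF3 peak of 190 bases lay inside it (39406855 to 39407044), beginning 8 bases beyond the start.

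The peaks at the start of ZFP36 shared 168 bases, so IRF3 was listed there in both kinds of cells. The control-only peak named in the choice of the gene is the one of 542 bases, wider than 96.0% of the IRF3 peaks of HA cells. The peak of 309 bases, wider than 78.0%, had no counterpart in caSmad3 cells either. By contrast, the peak of 190 bases in caSmad3 cells was wider than only 42.6% of the IRF3 peaks there. IRF3 peaks covered 1288 bases of the gene in HA cells (50.3% of its length) and 190 in caSmad3 cells (7.42%), a ratio of 6.78. The gaps between the peaks of HA cells were 713 and 376 bases, so the 3 peaks need not be separate sites. No input library was analysed here, and whether the signal along the gene was IRF3 was not tested.

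**Figure D1:**
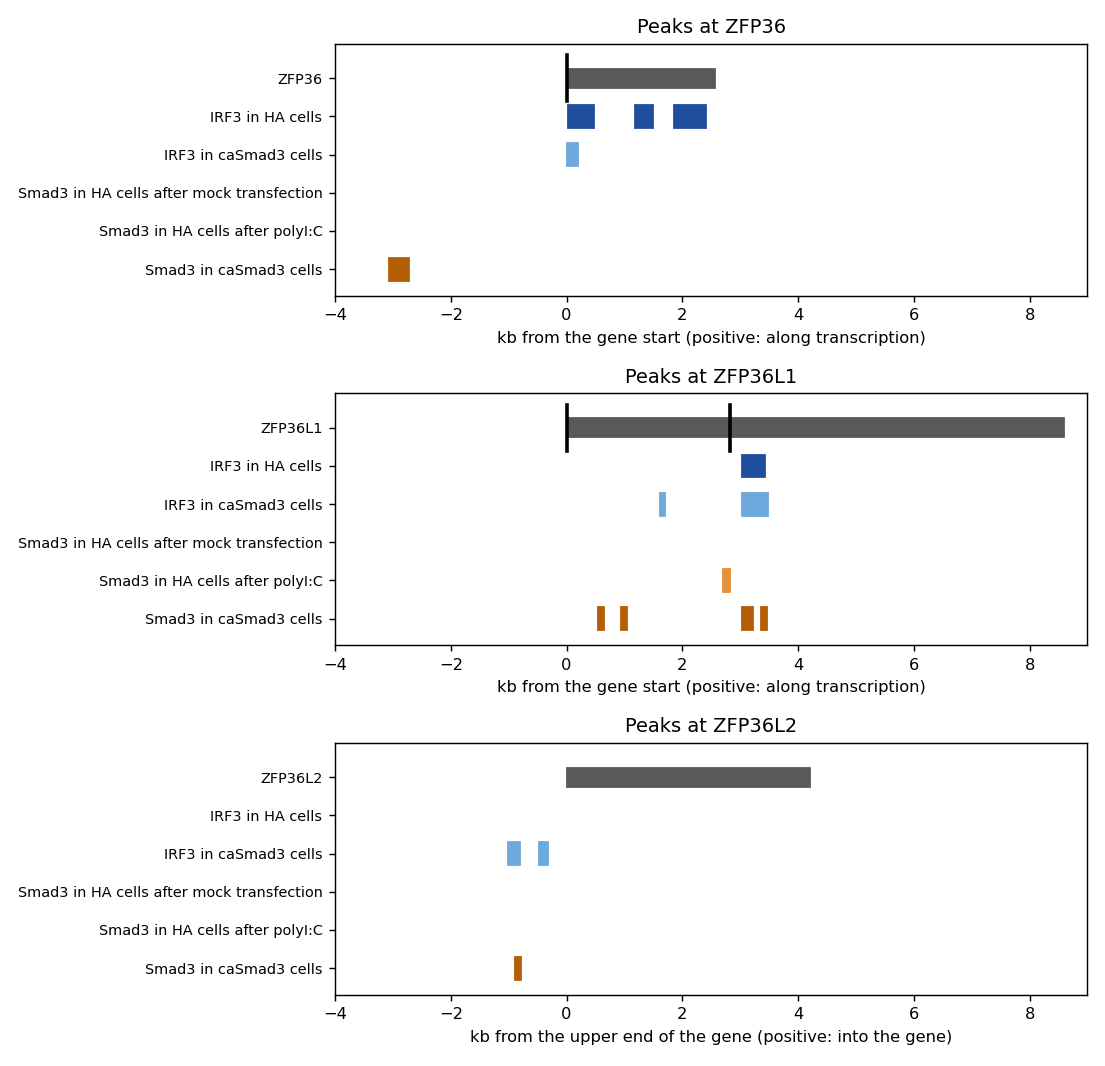
Peaks at ZFP36, ZFP36L1 and ZFP36L2 in the 5 libraries. The horizontal axis gives kb from the gene start (for ZFP36L2, from the upper gene end), grey bars are genes, black ticks are the starts in the promoter table and coloured bars are peaks to scale. IRF3 has 3 peaks at ZFP36 for HA cells and 1 for caSmad3 cells, 1 and 2 at ZFP36L1, and 0 and 2 at ZFP36L2.

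As background for these values, 0.22% of all protein-coding genes were touched by 3 or more IRF3 peaks in HA cells, and 0.175% by 2 or more HA peaks that overlapped no peak of caSmad3 cells. These shares rest on the peaks as listed. With peaks under 500 bases apart merged, ZFP36 had 2 IRF3 peaks in HA cells, the widest of 1227 bases. The shares were not computed for merged peaks. A share of the gene length as high as that of ZFP36 was reached in HA cells by 63 genes (0.314%), and 51 of them had symbols of histone genes, which are very short. Another 4, with other symbols, were below 500 bases, and what they encode was not examined. The remaining 8 were, besides ZFP36, the chemokine genes CXCL1 and CXCL2, the antiviral genes IFIT2 and ISG15, the interferon gene IFNB1, the AP-1 gene JUNB and the matricellular gene CCN1, which are named here after their values were seen.

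For IRF3 the covered share at CXCL1 was 96.24% in HA cells and 22.86% in caSmad3 cells. At CXCL2 it was 69.62% and 14.29%, and at ISG15 57.38% and 8.72%. IFIT2 had 58.50% in HA cells and IFNB1 had 54.95%, with 0 in caSmad3 cells for both. JUNB was closer, with 71.42% and 39.02%, and CCN1 went the other way, with 50.38% and 71.66%. These shares depend on gene length. All 8 genes were selected on a high share in HA cells, and ZFP36 on this contrast as well, so a lower share in caSmad3 cells is partly built in.

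**Figure D2:**
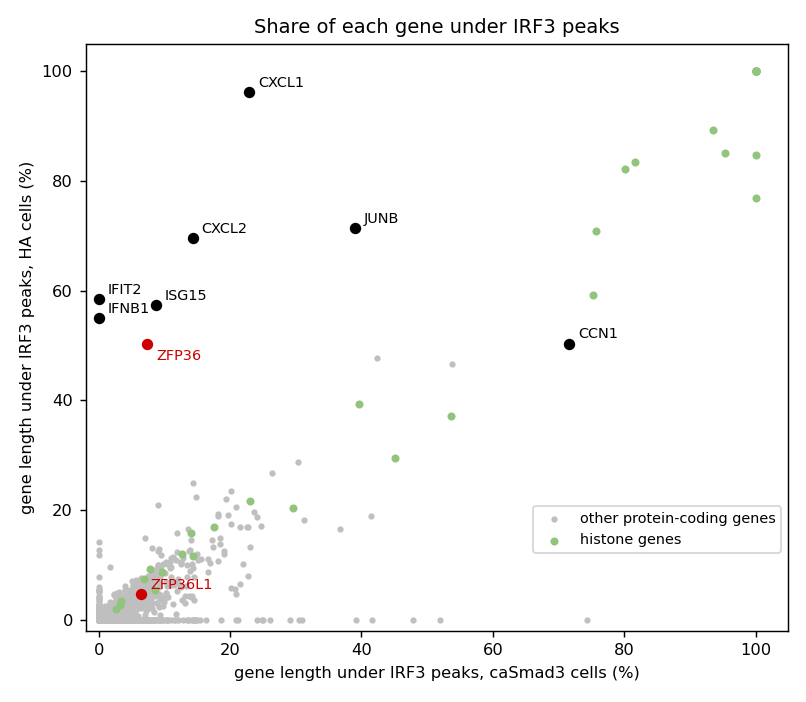
Share of gene length under IRF3 peaks in caSmad3 cells (horizontal axis, %) and HA cells (vertical axis, %) for protein-coding genes of at least 500 bases with an IRF3 peak; each point is a gene. ZFP36 lies at 7.42% and 50.3%, near ISG15, IFNB1 and IFIT2, while ZFP36L1 lies at 6.45% and 4.69% and ZFP36L2 has no peak inside the gene and is not drawn.

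Within 50 kb of ZFP36 the IRF3 peaks of its neighbours were listed in both kinds of cells. A peak over the lower end of MED29, a Mediator subunit gene, measured 298 bases (39391211 to 39391508) for HA cells and 235 bases (39391274 to 39391508) for caSmad3 cells. The ribosomal protein gene RPS16 had one over its upper end of 698 bases (39435723 to 39436420) and 675 bases (39435738 to 39436412). SUPT5H, an elongation factor gene, had one at its lower end of 310 bases (39445225 to 39445534) and 445 bases (39445304 to 39445748). Of the 6 HA peaks within 50 kb of ZFP36, 3 belonged to these nearer genes, as did 3 of the 4 caSmad3 peaks. The 2 HA peaks with no counterpart were the ones inside ZFP36.

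The last IRF3 peaks inside the window were those at SUPT5H, 35818 bases from ZFP36 for HA cells and 35897 for caSmad3 cells. The next ones outside it lay 64831 and 64826 bases away, near SAMD4B, with widths of 127 and 176 bases. On the other side, a peak of 161 bases at TIMM50 (39480815 to 39480975), 71408 bases away, was listed in caSmad3 cells only.

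**Figure D3:**
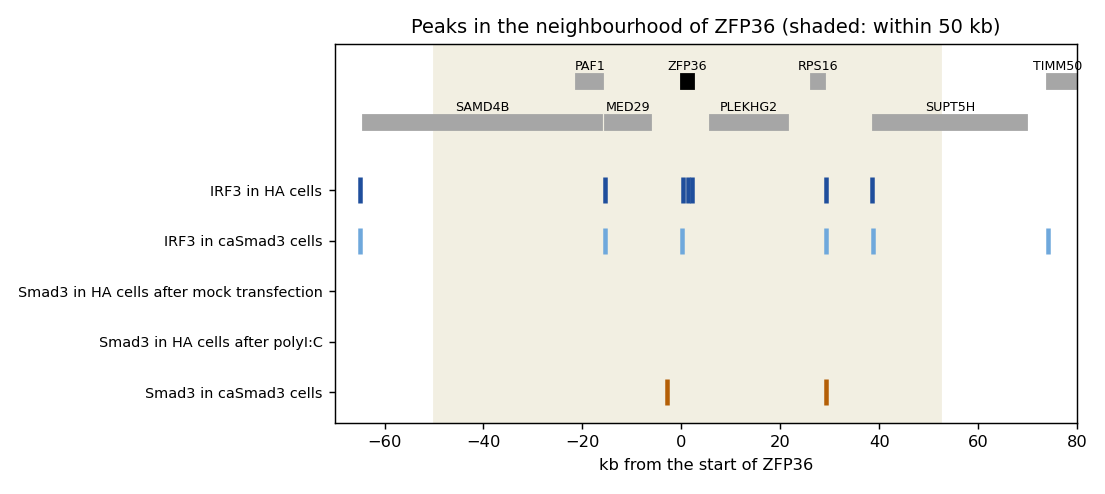
Peaks around ZFP36 by library, with kb from its start on the horizontal axis; ticks mark peak centres, grey bars are neighbouring protein-coding genes and the shaded band is within 50 kb. IRF3 ticks at MED29, RPS16 and SUPT5H appear in HA and caSmad3 cells, and 3 ticks inside ZFP36 in HA cells face 1 in caSmad3 cells.

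Smad3 was listed near ZFP36 in caSmad3 cells alone, and not inside the gene. One peak of 352 bases (39403773 to 39404124) ended 2723 bases before the start, with no IRF3 peak on it in either library. It was wider than 84.6% of the Smad3 peaks of those cells. The other, of 344 bases (39435850 to 39436193), lay at RPS16 within both IRF3 peaks there. HA cells given TGF-beta had 0 Smad3 peaks within 50 kb of ZFP36, after mock transfection and after polyI:C alike.

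At ZFP36L1 (8589 bases, chromosome 14, 68787655 to 68796243) the widest IRF3 peak was nearly the same in both kinds of cells. It was 403 bases in HA cells (68792806 to 68793208) and 450 in caSmad3 cells (68792757 to 68793206), with 401 bases shared. It lay 208 to 610 bases beyond the inner start in HA cells and 210 to 659 in caSmad3 cells. The pair were wider than 88.1% and 88.9% of the IRF3 peaks of their libraries. A further peak of 104 bases (68794534 to 68794637), between the inner and outer starts, was listed in caSmad3 cells only and was wider than 10.2% of peaks there. The element match at the outer start lay under no peak of any library. The 1 IRF3 peak of HA cells at ZFP36L1 thus had a counterpart in caSmad3 cells, as did 82.8% of all IRF3 peaks of HA cells.

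Both Smad3 libraries with polyI:C had peaks inside ZFP36L1, with no base shared between them. After polyI:C and TGF-beta, HA cells had 1 peak of 120 bases (68793424 to 68793543), at -127 to -8 from the inner start, the capitals in the sequence printed for it. In caSmad3 cells there were 4 peaks. A pair of them, of 192 bases (68793026 to 68793217) and 99 bases (68792787 to 68792885), overlapped the wide IRF3 peak, by 181 and 99 bases in the same cells. The others, of 103 bases (68795197 to 68795299) and 99 bases (68795600 to 68795698), lay 944 to 1046 and 545 to 643 bases beyond the outer start, under no IRF3 peak. The peak of HA cells overlapped no Smad3 peak of caSmad3 cells, although 86.4% of all 786 Smad3 peaks of that HA library did. It lay under 500 bases from the caSmad3 peak of 192 bases, so a separate site is not shown. It was also narrow, wider than 29.8% of its library. Mock-transfected HA cells had 0 Smad3 peaks within 50 kb.

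Outside the window, a Smad3 site 92050 bases below ZFP36L1 was listed in HA cells given polyI:C with 310 bases (68695296 to 68695605). In caSmad3 cells it had 707 bases (68695166 to 68695872), wider than 98.3% of the Smad3 peaks there. The protein-coding gene nearest to it was RAD51B, a recombination gene, at 12200 and 12070 bases. In caSmad3 cells the nearest Smad3 peak outside the window was a narrower one of 166 bases, 84252 bases below ZFP36L1.

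At ZFP36L2 (4205 bases, chromosome 2, 43222402 to 43226606) peaks were listed in caSmad3 cells only, all just above the upper end of the gene and none inside it. IRF3 had 2, of 152 bases (43226934 to 43227085) at 328 bases from the gene and of 206 bases (43227416 to 43227621) at 810 bases. Smad3 had 1 of 99 bases (43227401 to 43227499) at 795 bases, which shared 84 bases with the second IRF3 peak. That pair of peaks also overlapped the non-coding gene LINC01126, and the first lay 126 bases from it, so a peak cannot be given to one of these genes. The IRF3 peaks were wider than 30.4% and 47.2% of their library, and 99 bases is the narrowest width in every list. An IRF3 peak within 50 kb in caSmad3 cells and none in HA cells was found for 21.2% of all protein-coding genes.

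Over the family, within 50 kb, 7 IRF3 peaks were listed for HA cells and 8 for caSmad3 cells, and Smad3 had 0, 1 and 7 in HA cells after mock transfection, HA cells after polyI:C and caSmad3 cells. For IRF3 2 of 3 members had a peak within the window in HA cells, where 37.6% of protein-coding genes did, and 3 of 3 in caSmad3 cells, where 57.1% did. For Smad3 the members were 0, 1 and 3, where 2.04%, 5.24% and 33.8% of genes had one. Counting peaks that touch the gene, IRF3 had ZFP36 and ZFP36L1 in HA cells (15.1% of genes) and the same 2 in caSmad3 cells (28.8%). Smad3 touched ZFP36L1 alone, in HA cells after polyI:C (1.47% of genes) and in caSmad3 cells (12.2%). With 3 genes, and ZFP36 chosen on its peaks, these counts are not set against the background by a test.

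Within genes, the balance between the IRF3 libraries differed from member to member. ZFP36 had fewer peaks in caSmad3 cells than in HA cells, as did 1.97% of protein-coding genes. ZFP36L1 was touched by IRF3 and by Smad3 in caSmad3 cells, as were 7.82% of genes. Of the 7 HA peaks within 50 kb of the family, 5 overlapped an IRF3 peak of caSmad3 cells (71.4%, against 82.8% of the whole list). Of the 8 caSmad3 peaks, 5 overlapped an HA peak (62.5%, against 40.9%). In both counts the overlaps include those at MED29, RPS16 and SUPT5H, which lay nearer another gene than a member. Within 10 kb of a member, 2 of 4 HA peaks overlapped one of caSmad3 cells. Of the 5 caSmad3 peaks there, those of 190 bases at ZFP36 and 450 bases at ZFP36L1 overlapped an HA peak. The one of 104 bases at ZFP36L1 and those at ZFP36L2 did not, so the higher share at 50 kb rests on the neighbouring genes. In caSmad3 cells, 4 of the 7 Smad3 peaks lay on an IRF3 peak (57.1%, against 31.6%), namely at RPS16, ZFP36L1 (2 peaks) and ZFP36L2. Asking for an overlap of 50% of both peaks left 1 of these 4, that at RPS16, which is not a member. The overlaps at ZFP36L1 and ZFP36L2 did not pass, and the share over all Smad3 peaks was not computed for this rule.

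Genes whose widest peaks within 10 kb were most like those of each member over the 5 libraries were found by the Euclidean distance of log2(width + 50 bases). For ZFP36 (542, 190, 0, 0 and 352 bases, in the order IRF3 in HA and caSmad3 cells, then Smad3 in mock, polyI:C and caSmad3 cells) the nearest were MRPL18, PNLDC1 and TCP1. These neighbours share their peaks (393, 267, 0, 0 and 318 bases, distance 0.594), and REC8 (0.718) and GSTCD (0.724) followed. No gene came as close to ZFP36 as the nearest ones did to the other members. The 542 bases in its pattern are the peak on which ZFP36 was chosen, so that distance is partly built in and is only a description.

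For ZFP36L1 (403, 450, 0, 120 and 192 bases) they were ARL6IP1 and SMG1 (377, 438, 0, 148 and 192 bases, distance 0.239), which share peaks, POLG and POLGARF (0.435), which do too, and UBB (0.496). The pattern of ZFP36L2, with 206 bases for IRF3 and 99 bases for Smad3 in caSmad3 cells, was close to that of ELL and R3HDM2 (0.017 each), VPS4A (0.034), ELF4 (0.04) and LMCD1 (0.044).

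The genes that carry out or receive ZFP36 activity were examined within 10 kb, where 23.6% of all protein-coding genes had an IRF3 peak in HA cells and 40.5% in caSmad3 cells. For Smad3 that background was 184 of 20037 genes in HA cells after mock transfection, 2.53% in HA cells after polyI:C and 19.9% in caSmad3 cells. Genes of deadenylation and decapping, the machinery that ZFP36 recruits, had an IRF3 peak at 16 of 27 in HA cells (59.3%) and at 21 in caSmad3 cells (77.8%), and all 16 were among the 21. The scaffold CNOT1 (341 and 461 bases for the widest IRF3 peak in HA and caSmad3 cells), the deadenylase CNOT7 (457 and 544), PARN (251 and 583), TOB2 (630 and 693), BTG1 (449 and 320) and PATL1 (233 and 362) had peaks in both. CNOT2, CNOT3, CNOT6L, CNOT9 and CNOT11 had peaks in caSmad3 cells only, between 100 bases at CNOT9 and 314 at CNOT11. The median of the widest peaks was 222 and 334 bases, against 207 and 270 over all genes with a peak. Smad3 was listed at 9 of 27 in caSmad3 cells (33.3%) and at TOB2 alone in HA cells, with 111 bases after mock transfection and 207 after polyI:C.

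Other binding proteins of AU-rich elements and CCCH ribonucleases had an IRF3 peak at 6 of 15 in HA cells (40.0%) and at the same 6 and 3 more in caSmad3 cells (60.0%). Among the 6 were HNRNPAB (409 and 698 bases), RC3H2 (194 and 715), TIAL1 (182 and 798), HNRNPD (110 and 283), which encodes AUF1, and KHSRP (103 and 132), and the 3 others were TIA1 (287), RC3H1 (257) and ELAVL1 (114), which encodes the stabilising protein HuR. Smad3 in caSmad3 cells was at 5 of 15 (33.3%), and in HA cells at 0. Median widths of IRF3 peaks were 188 and 287 bases.

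Kinases that control ZFP36, its phosphatase and 14-3-3 adaptors had an IRF3 peak at 7 of 16 in HA cells (43.8%) and at 11 in caSmad3 cells (68.8%), the 7 included. DUSP1, the phosphatase that turns off p38 kinases, had a peak of 464 bases in HA cells, against 398 in caSmad3 cells. The 14-3-3 genes YWHAE (393 and 600), YWHAZ (290 and 615), YWHAG (197 and 272), YWHAQ (187 and 269) and YWHAB (177 and 244) were in both lists. PPP2CA (406), MAPK14 (270), which encodes p38 alpha, YWHAH (218) and MAP2K3 (207) were in that of caSmad3 cells only. Medians were 197 and 270 bases, and Smad3 was at 4 of 16 in caSmad3 cells (25.0%) and at 1, YWHAQ, in HA cells after polyI:C (6.25%).

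Genes of transcripts with AU-rich elements included some with an IRF3 peak in HA cells but not in caSmad3 cells. The list had an IRF3 peak at 22 of 38 in HA cells (57.9%) and at 20 in caSmad3 cells (52.6%), with 15 in both. The 7 with a peak in HA cells only were IFNB1 (354 bases), CXCL8 (320), CCL2 (228), IL6 (124), CXCL3 (116), IFNL1 (106) and CDKN1A (101), all but CDKN1A genes of cytokines or chemokines. They make 18.4% of the list, beside 1.52% of all protein-coding genes with an IRF3 peak within 10 kb in HA cells only. The 5 with a peak in caSmad3 cells only were CCND1 (284), PTGS2 (205), SOCS3 (184), PLAU (143) and FOSB (101), or 13.2%, beside 18.5% of all protein-coding genes. Across the other 3 lists 0 genes had an HA peak alone, which is near that low background, and 18.5% to 25.0% had a caSmad3 peak alone. The difference between the lists was not tested, and the lists were drawn up with earlier results of these data known.

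Among the 15 transcripts' genes in both, the widest peaks in HA cells were at CXCL1 (1313 bases, 517 in caSmad3 cells), CXCL2 (759 and 204), JUN (594 and 602), IER2 (514 and 606), JUNB (512 and 480) and DUSP1 (464 and 398). The widest peaks of CXCL1 and CXCL2 were narrower in caSmad3 cells, as at ZFP36, those of JUNB and DUSP1 slightly so, and those of JUN and IER2 were wider. Medians over the list were 337 bases in HA cells and 323.5 in caSmad3 cells. For Smad3 the list had 1 gene after mock transfection (PLAU, 99 bases), 7 after polyI:C (18.4%) and 17 in caSmad3 cells (44.7%). The 7 were CXCL1 (370 bases), JUNB (267), JUN (264), FOS (206), IER3 (164), IER2 (139) and PLAU (135).

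**Figure D4:**
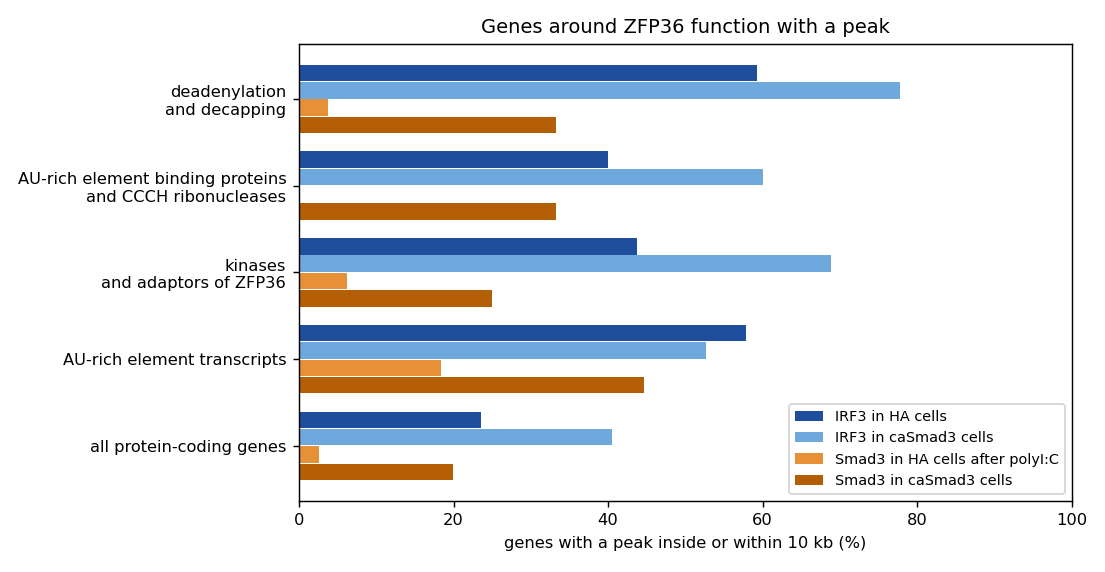
Share of genes with a peak inside or within 10 kb (horizontal axis, %) for 4 gene lists around ZFP36 function and for all protein-coding genes, with a bar for each of 4 libraries. In 3 lists the IRF3 bar of caSmad3 cells is longer than that of HA cells, as over all genes (40.5% against 23.6%), and for transcripts with AU-rich elements it is shorter (52.6% against 57.9%).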

How the data were processed

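Chromatin of BT549 cells was precipitated with anti-IRF3 or anti-Smad3 antibody, per the labels' protocols, and the authors deposited a separate peak list per library (5 in all), holding positions in bases without scores or counts. Per the submitters' processing notes, the tools included MACS2 2.1.0 and Bowtie2 2.2.2.6 and the build was hg38. Calling thresholds and input controls: not given in the sources used here. Starts were moved to 1-based positions. Genes on chromosomes 1 to 22, X and Y came from a RefSeq table of GRCh38.p14, which has no exons or strand, and strand and starts from its promoter table. Overlap meant at least 1 shared base. The members and 4 lists of related genes (95 genes) were chosen with earlier results of these data known. Named genes were the members, list genes with an IRF3 peak in 1 kind of cell only, up to 6 genes per list with peaks in both by width in HA cells, and the 5 genes nearest to each member in peak widths, leaving out genes within 100 kb. An item of these lists is not reported here by name. Scripts in Python 3.11.15 (pandas 2.3.3) were tested on simulated data, with planted peaks at known distances.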

Additional observations from a re-analysis of the deposited data

How the results depend on the processing

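No paired analysis was possible because each group held 1 library. Of 52 alternative values for 15 counts, 41 stayed within 1.5 times the main count. With a window of 10 kb the family kept 4 IRF3 peaks for HA cells and 5 for caSmad3 cells, and 2 of the 4 overlapped between the libraries. A window of 100 kb gave 2 Smad3 peaks in HA cells after polyI:C. The wider 50% of peaks left 4 IRF3 and 3 Smad3 peaks in caSmad3 cells and 0 Smad3 peaks in HA cells after polyI:C. At ZFP36 the 3 IRF3 peaks of HA cells stayed, and the 1 of caSmad3 cells did not. Each library had its own limit, its median width, which for IRF3 was 185 bases (HA) and 215 bases (caSmad3). The lost peak measured 190 bases and would have passed the HA limit, so 3 against 0 rests on unequal limits. The same limits gave 10 deadenylation and decapping genes and 3 element-binding genes in HA cells, and 13 genes of AU-rich element transcripts in caSmad3 cells. Merging peaks under 500 bases apart instead left 2 IRF3 peaks at ZFP36 for HA cells against 1 for caSmad3 cells. An overlap of 50% of both peaks left 1 Smad3 peak of caSmad3 cells on an IRF3 peak, that at RPS16. The cause was not tested. Depth limits every absent peak.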
